A study of Mus musculus with 8 samples.

Results

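The older LINE-1 families are all LINE-1 elements of the deposited transposon tables whose names do not begin with L1Md, the prefix of the young mouse LINE-1 families. The choice was made by name alone and gave 212 of the 1268 entries of each table, which are 106 of 634 families with a sense and an antisense entry each. By name they fall into 12 murine families (L1_Mus, L1_Mur, L1_Mm, L1_Rod and L1VL), 16 Lx families, 9 L1MA, 7 L1MB, 10 L1MC, 6 L1MD, 17 L1ME, 21 other L1M, 6 HAL1 and 2 L1P families. The 8 libraries form 4 groups of 2, all from C57BL/6 mice aged 6 weeks. Whole-testis RNA came from mice heterozygous or homozygous for RNF17, and the other 2 groups are RNA recovered from testis lysate of the same genotypes with RNF17 antibody 1774, an immunoprecipitation (IP). The testis libraries had no antibody step and are also the input of the IPs. No label names the Rnf17 allele, an IP with another antibody, or the animal behind each library. The p-values below therefore measure the spread between libraries only, and that spread may be technical.

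LINE-1 elements are retrotransposons that copy themselves through an RNA intermediate, which carries an RNA-binding protein (ORF1) and a reverse transcriptase with an endonuclease (ORF2). The murine and Lx families spread in the rodent lineage, the L1M families are shared widely among mammals and run from the younger L1MA to the older L1ME, and HAL1 elements are LINE-1 relatives that kept only the first reading frame. Most copies of such old families are truncated and cannot move, but they lie in introns and between genes and are read through from other promoters. In male germ cells PIWI proteins loaded with piRNAs silence LINE-1, and RNF17 carries Tudor domains, modules that bind methylated arginines on PIWI proteins.

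Levels are given as CPM, reads of an entry divided by the gene reads of the library, after TMM scaling of the gene table and on the usual counts-per-million scale. A shift of all transposons against genes therefore remains visible. Gene reads numbered 5661754 to 50575649 per library. Uniquely mapped transposon reads numbered 19.3 and 18.8 per 100 gene reads in replicate 1 of heterozygous and homozygous testis, 6.30 and 8.01 in replicate 2, and 6.89 to 14.6 in the IPs. Rnf17 itself, the check of the labels, was at 518 and 532 CPM in the testis of heterozygotes and 50.1 and 104.9 CPM in that of homozygotes. In the IPs it was at 1273 and 1173 CPM in heterozygotes and 209 and 379.8 CPM in homozygotes. The tissue label was checked with 12 germ cell markers, whose summed level was 6872 to 22143 CPM in heterozygous and 1444 to 2954 CPM in homozygous testis. Markers of 2 somatic testis cell types moved the other way: 5 Sertoli cell genes summed to 345 to 425 and 729 to 1027 CPM, and 5 Leydig cell genes to 172 to 262 and 395 to 677 CPM, with Insl3 at 0 in all 4 testis libraries. Single germ cell markers did not all follow their sum: Ddx4 was at 1199 and 1397 CPM in heterozygous and 564 and 1556 CPM in homozygous testis. Homozygous testis replicate 2 stood apart from the other testis libraries, and heterozygous IP replicate 1 from the other IPs, in the share of multiply mapped older LINE-1 reads, given with those reads. In such bulk samples fewer cells of a type and less RNA per cell cannot be told apart.

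Older LINE-1 reads made up 22.8% to 41.6% of all uniquely mapped transposon reads, and their summed level differed more between the libraries of a testis group than between the genotypes. In the testis the sum was 83835 and 26855 CPM for heterozygotes and 49668 and 24544 CPM for homozygotes, so the groups overlapped. In the IPs it was 29059 and 30899 CPM in heterozygotes and 20983 and 27990 CPM in homozygotes, which did not overlap but lay close together. With 2 libraries against 2, an exact two-sided permutation test cannot give a p below 0.333, so no sum was tested. The log2 ratio of the group means was -0.58 for homozygous against heterozygous testis and 0.29 for heterozygous against homozygous IP. The latter hid opposite movements inside the pool: without the HAL1 families it was 0.91, from 25708 and 26655 CPM against 13320 and 14580 CPM, while the HAL1 families summed to 3351 and 4243 CPM against 7663 and 13410 CPM. This split by HAL1 was chosen after the values were seen.

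**Figure D1:**
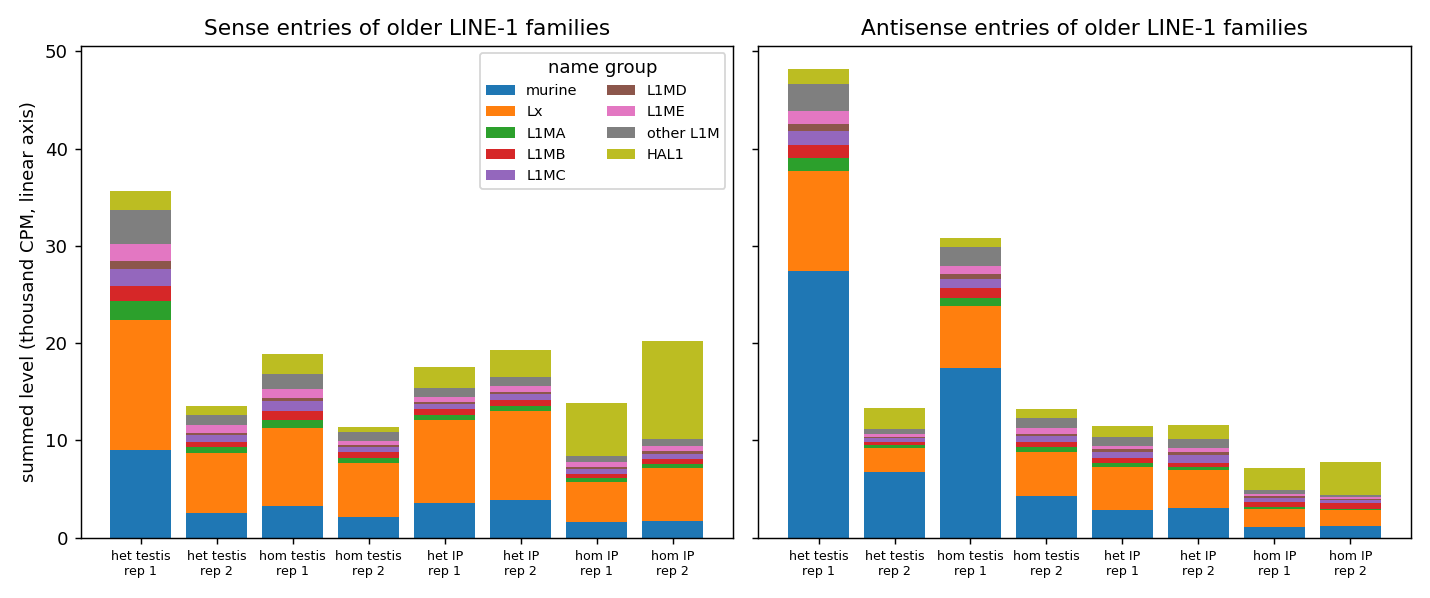
Summed level of the older LINE-1 entries in each of the 8 libraries (linear axis from 0, in CPM divided by 1000), for sense entries on the left and antisense entries on the right, stacked by name group; the L1P families are too low to draw. The murine antisense entries stand out in heterozygous testis replicates 1 and 2 and homozygous testis replicate 1, and the HAL1 entries in both homozygous IPs.

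The rodent families (Lx and murine) together held most of the reads in the testis libraries and in the heterozygous IPs, but not in the homozygous IPs. The Lx families summed to 5917 to 23729 CPM and the murine families to 2755 to 36357 CPM over the 8 libraries. The L1M groups were lower, from 364 to 1448 CPM for L1MD and from 1013 to 6374 CPM for the other L1M families, and the L1P families were at 15.3 CPM in their highest library. Entries of different families are not compared per length here, since their summed genomic length is not in the tables, and the number of genomic copies behind an entry cannot be read from them. Within the groups the leading entries were Lx8 sense (713 to 2033 CPM), Lx7 antisense (311 to 1890), L1_Mur3 sense (203 to 1761), L1M2 sense (172 to 1148) and L1M2 antisense (90.5 to 989). The leading sense entries of the L1MA to L1ME groups (L1MA4, L1MB7, L1MC4, L1MDa and L1MEf) stayed between 37.2 and 457 CPM. All of these had their highest value in heterozygous testis replicate 1 except L1MEf sense, which was at 294 CPM there and at 323 CPM in replicate 2.

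A single entry, L1_Mus1 antisense, dominated 3 of the 4 testis libraries. In the testis it was at 17500 and 5049 CPM in heterozygotes and 12040 and 599 CPM in homozygotes, and in the IP at 312 and 425 CPM and at 120 and 106 CPM. All 4 IPs were lower than all 4 testis libraries, and homozygous testis replicate 2 stood far below the other testis library of its group. The entry took 20.9%, 18.8% and 24.2% of the older LINE-1 reads in heterozygous testis replicates 1 and 2 and homozygous testis replicate 1, against 2.44% in homozygous testis replicate 2 and 0.377% to 1.38% in the IPs. L1_Mus1 sense did not share this pattern: it was at 729 and 228 CPM (heterozygotes) and 324 and 281 CPM (homozygotes) in the testis, and at 367 and 452 CPM and 202 and 199 CPM in the IP.

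**Figure D2:**
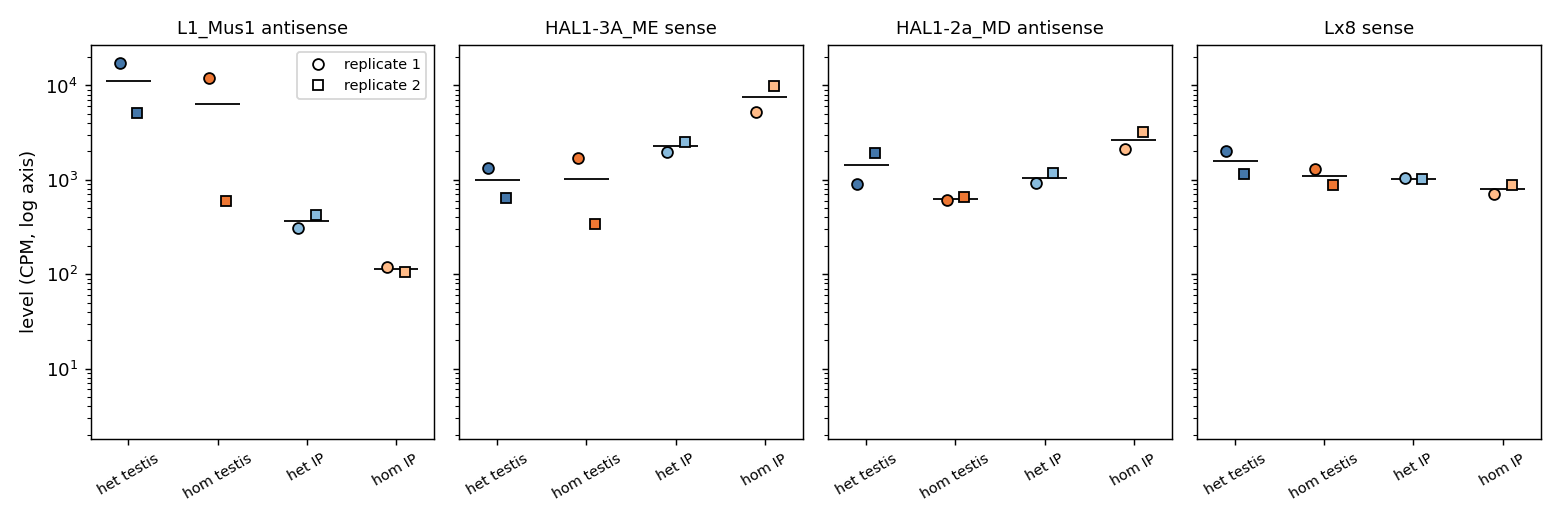
Level of 4 leading entries in each library (CPM, log axis), by group, with circles for replicate 1, squares for replicate 2 and a line at the group mean. L1_Mus1 antisense is spread over more than a factor of 10 within homozygous testis and is lowest in the homozygous IP, the 2 HAL1 entries are highest in the homozygous IP, and Lx8 sense lies within 713 to 2033 CPM throughout.

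The heterozygous IP was compared with the homozygous IP, a comparison of what the same antibody recovered from the 2 genotypes. In the quasi-likelihood test of edgeR on uniquely mapped reads (189 of the 212 entries passed the filter on low counts; calls are adjusted p values under 0.05 by the Benjamini-Hochberg method over the whole table), 107 older LINE-1 entries were higher in the heterozygous IP and 7 were lower. That is 56.6% and 3.7%, against 55.5% and 2.16% of all 974 transposon entries tested, so the older LINE-1 families as a whole stood at the background of the table. Their median log2 fold change was 0.86 and that of all entries 0.87. In the same IPs the 12 germ cell markers summed to 7394 and 6714 CPM in heterozygotes and 3098 and 3541 CPM in homozygotes. Ddx4, a marker among the 12, did not follow the sum, at 1203 and 1024 against 1185 and 1235 CPM. The part of the germ cell markers in the result was not tested. The IP groups did not overlap for 149 entries that were higher (78.8%, all entries 75.9%) and 15 that were lower (7.94%, all entries 6.06%). When libraries were scaled within the transposon table instead, the median of all entries moved by -0.88 and the calls became 33 higher and 35 lower. The direction of most entries is thus relative to gene reads. The share of all entries called under this scaling was not counted.

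Sense and antisense entries differed in these counts. Of 91 antisense entries 73 were higher and 3 lower (80.2% and 3.3%, against 58.9% and 2.02% of all antisense entries), with a median log2 fold change of 1.24. Of 98 sense entries 34 were higher and 4 lower (34.7% and 4.08%, against 52.1% and 2.29% of all sense entries), with a median of 0.40. Scaling within the transposon table gave 26 higher and 4 lower antisense entries and 7 higher and 31 lower sense entries. For these counts too no share of all entries was counted. The sign of the sense median turned, to -0.49. Such a change of scaling shifts all entries by nearly the same amount (median -0.88), so it could not alter the order of the orientations. Without any 1 of the 4 IPs the antisense median stayed between 1.18 and 1.51 and the sense median between 0.28 and 0.49. The difference between the orientations was not itself tested.

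The rodent families moved further than the L1M families. All 12 murine antisense and all 16 Lx antisense entries were called higher, as were 11 of 12 murine and 12 of 16 Lx sense entries; the median log2 fold changes were 1.47 for the murine and 1.38 for the Lx families. Of the 122 L1M entries tested 51 were higher and 5 lower, with a median of 0.50. Among all transposon entries tested, 55.5% were called higher and 2.16% lower, with a median of 0.87. For antisense entries alone the shares were 58.9% and 2.02%, and for sense entries 52.1% and 2.29%. Under scaling within the transposon table the median of all entries was -0.02. There 25 Lx and murine entries stayed higher and 2 became lower, whereas the L1M groups gave 7 higher and 29 lower and a median of -0.39. The share of all entries called under this scaling was not counted, so these counts have no background beside them. All 9 L1MA antisense entries were called higher and none of the 9 L1MA sense entries was, with medians of 1.39 and 0.16.

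Among the entries with the smallest adjusted p, Lx2 antisense was at 222 and 199 CPM in the heterozygous and 46.7 and 43.2 CPM in the homozygous IP, a log2 fold change of 2.23 (SE 0.18, edgeR adjusted p = 7.47e-05). L1MA7 antisense was at 88.6 and 69.3 against 12.9 and 11.6 CPM (log2 fold change 2.69, SE 0.22, edgeR adjusted p = 7.47e-05). L1_Mus2 antisense stood at 232 and 267 against 78.3 and 72.4 CPM, Lx antisense at 294 and 299 against 95.0 and 75.2 CPM, and L1_Mus3 antisense at 314 and 276 against 95.1 and 90.4 CPM, with log2 fold changes of 1.73, 1.80 and 1.67. The IP groups did not overlap in these 5 entries, which were picked by adjusted p in this same comparison, so this adds no support. L1_Mus1 antisense rose as well, by 1.71 (SE 0.20, edgeR adjusted p = 0.000246), although every IP library held less of it than every testis library.

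**Figure D3:**
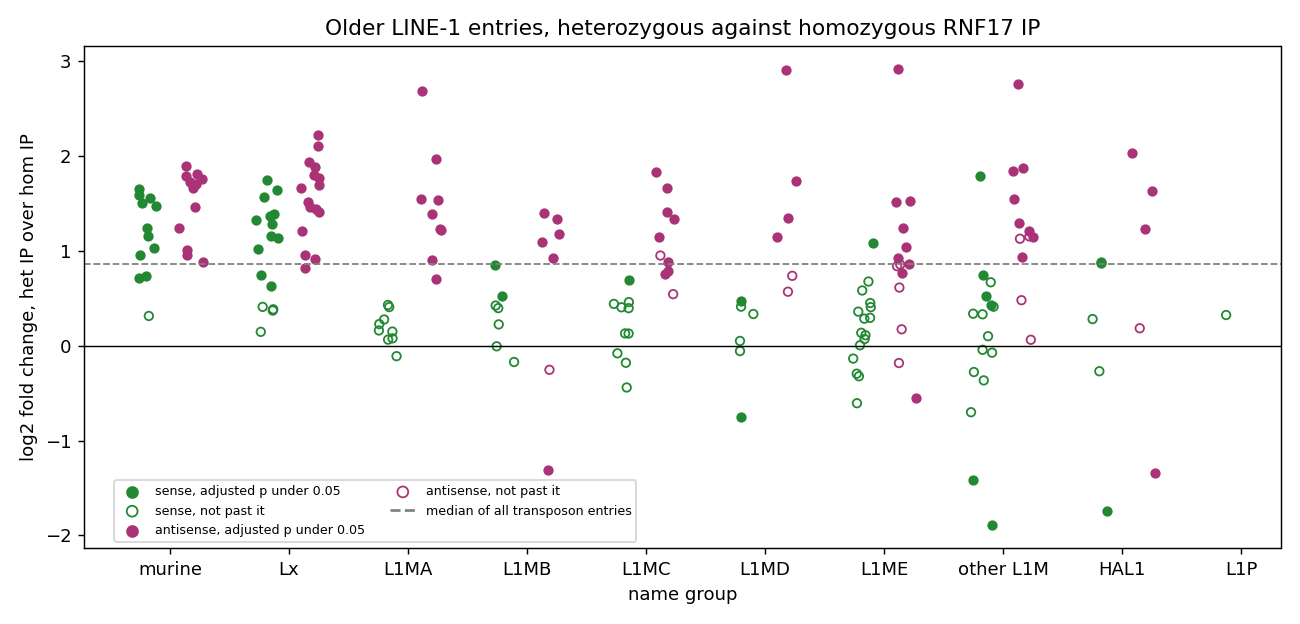
Log2 fold change of heterozygous over homozygous IP for the 189 older LINE-1 entries tested, by name group, with sense entries in green and antisense entries in magenta, filled where the edgeR adjusted p was under 0.05; the dashed line is the median of all transposon entries at 0.87. Antisense points lie above sense points of the same group in most groups, and 7 filled points lie below 0, among them 2 HAL1 entries.

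The 7 entries that were lower in the heterozygous IP came from 7 families. The 2 most abundant were HAL1 entries. HAL1-3A_ME sense was at 1350 and 646 CPM in heterozygotes and 1723 and 341 CPM in homozygotes in the testis, and at 1987 and 2544 CPM and 5250 and 9910 CPM in the IP. HAL1-2a_MD antisense was, in the same order, at 898 and 1946 CPM, 605 and 651 CPM, 926 and 1178 CPM, and 2123 and 3208 CPM. Both were highest in the homozygous IPs, with no overlap with any other group. They fell by 1.74 (SE 0.40, edgeR adjusted p = 0.00523) and by 1.34 (SE 0.31, edgeR adjusted p = 0.00563) on the log2 scale in the heterozygous against the homozygous IP. Leaving out any 1 of the 4 IPs kept both calls, as did every scaling tried.

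Together the 2 entries made up 35.1% and 46.9% of all older LINE-1 reads in the homozygous IPs, 10.03% and 12.05% in the heterozygous IPs and 2.68% to 9.65% in the testis libraries. They are also the bulk of the HAL1 families, with 65.9% to 97.8% of the HAL1 reads. The rest of the HAL1 entries did not move with them: 10 HAL1 entries were tested, and beside these 2 lower ones 5 were called higher in the heterozygous IP. Among the 5 were MusHAL1 antisense (101 and 127 against 39.2 and 34.4 CPM, a log2 fold change of 1.63) and HAL1 antisense (34.2 and 33.0 against 18.3 and 10.5 CPM, 1.23). The sense entry of HAL1-2a_MD was another, with a log2 fold change of 0.88.

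The third abundant entry of the 7 was L1MB7 antisense. It was at 139 and 183 CPM in the heterozygous IP and 392 and 409 CPM in the homozygous IP, and fell by 1.32 on the log2 scale (SE 0.19, edgeR adjusted p = 0.000577). In the testis it stood at 321 and 90.2 CPM in heterozygotes and 249 and 156 CPM in homozygotes, and both ranges overlapped that of the heterozygous IP. L1MB7 sense was nearly level over the IPs, at 157 and 173 against 139 and 144 CPM. The other 4 were L1M2a sense (1.70 and 4.22 against 9.98 and 11.1 CPM), L1MD2 sense (53.6 and 61.4 against 86.1 and 107 CPM), L1M3b sense (2.55 and 3.75 against 8.13 and 8.39 CPM) and L1MEg antisense (41.7 and 47.5 against 72.1 and 58.6 CPM), of which the last 2 lie outside the naming rule and were chosen after their values were seen. Without heterozygous IP replicate 1 the calls of L1M2a sense and L1MD2 sense were lost (edgeR adjusted p = 0.0543 and edgeR adjusted p = 0.0607).

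In the heterozygous IP against its own testis libraries, a comparison of recovered with input RNA, L1_Mus1 antisense was the only older LINE-1 entry called among 200 tested, and it was lower. Its levels were 369 ± 79.9 CPM in the IP and 11275 ± 8804 CPM in the testis (SD, n = 2 each), a log2 fold change of -4.93 (SE 1.12, edgeR adjusted p = 0.00581). Of all 1031 entries tested, 0.097% were lower and 0.097% higher. The groups did not overlap for 4 older LINE-1 entries that were higher and 41 that were lower in the IP (2% and 20.5%, against 14.3% and 17.1% of all entries). The call was lost without either heterozygous IP, at log2 fold changes of -4.73 and -5.17, and the lowest edgeR adjusted p over the alternatives that lost it was 0.0611, with scaling within the transposon table. With plain gene read totals the edgeR adjusted p was 0.424. The direction stayed in all of these. The median over the older LINE-1 entries was -0.99, against -0.34 for all entries, -0.14 for the 12 L1Md entries and 0.36 for the 31 IAP entries, which belong to another retrotransposon class. It was -0.48 for 172 entries of the LTR group MaLR and -0.24 for 8 entries of the LINE group L2. The older LINE-1 median rested on heterozygous testis replicate 1. By replicate number, the median log2 ratio of IP to testis was -1.64 in replicate 1 and 0.30 in replicate 2. All transposon entries summed to 201502 and 81774 CPM in heterozygous testis and 127423 and 107953 CPM in its IP, so the whole table differed between the testis libraries too.

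The homozygous IP against homozygous testis gave more calls. Of 199 older LINE-1 entries tested 102 were lower and 3 higher (51.3% and 1.51%, against 34.2% and 1.5% of all 1000 entries). The median log2 fold change was -1.19, with -0.89 for all entries. Here too the orientations parted: 87 of 99 antisense entries were lower and 1 higher (87.9% and 1.01%, against 48.8% and 0.584% of all antisense entries), and 15 of 100 sense entries were lower and 2 higher (15% and 2%, against 18.7% and 2.47%). Groups did not overlap for 154 entries that were lower and 8 that were higher in the IP (77.4% and 4.02%, all entries 67.7% and 5.4%). Under scaling by the transposon table itself, where the share of all entries called was not counted, the median of all entries shifted by 0.88. That left 53 entries lower, all antisense, and 14 higher, 10 of them sense. The count depended on single libraries, being smallest without homozygous IP replicate 2 and largest without homozygous testis replicate 2. By replicate number, the median log2 ratio of IP to testis was -1.51 in replicate 1 and -0.81 in replicate 2. Where a library is left out, the remaining library of its group is taken to vary like the other group.

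L1_Mus1 antisense had the smallest adjusted p of these, from 6319 ± 8090 CPM in testis to 113 ± 10.4 CPM in the IP (SD, n = 2 each), a log2 fold change of -5.81 (SE 0.91, edgeR adjusted p = 2.44e-06). It lost its call without homozygous IP replicate 2 (edgeR adjusted p = 0.167). L1VL1 antisense was at 115 ± 20.9 CPM in testis and 16.9 ± 0.695 CPM in the IP (SD, n = 2 each), and fell by 2.76 on the log2 scale. L1VL4 antisense was at 560 and 368 CPM in testis and 66.1 and 66.5 CPM in the IP, and fell by 2.81. L1_Mm and L1MA4A antisense fell by 2.48 and 2.66. In these 4 entries, also picked by adjusted p in this comparison, the testis and IP libraries did not overlap.

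The 3 entries called higher in the homozygous IP than in homozygous testis were HAL1-3A_ME sense (log2 fold change 2.88, SE 0.80, edgeR adjusted p = 0.00368), HAL1-2a_MD antisense (2.09, SE 0.61, edgeR adjusted p = 0.00616) and L1M2a sense (1.39, SE 0.55, edgeR adjusted p = 0.0389). The same 3 were lower in the heterozygous than in the homozygous IP, a comparison that shares the homozygous IP libraries with this one. All 3 lost their call with plain gene read totals (edgeR adjusted p from 0.0895 to 0.287), and without either homozygous IP. L1M2a sense lost it also without homozygous testis replicate 2, at an edgeR adjusted p of 0.0661. In the heterozygous IP against its testis the 2 HAL1 entries were not called, with log2 fold changes of 1.18 (SE 0.88) and -0.44 (SE 0.86).

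Whether the IP to testis ratio itself differed between genotypes was tested as an interaction over all 8 libraries. No older LINE-1 entry of 204 was called by edgeR, as was no transposon entry of 1060 (0%); 11 and 110 had an unadjusted p under 0.05. DESeq2 called 1, HAL1-2a_MD antisense, whose ratio was lower in heterozygotes by 2.52 on the log2 scale in the edgeR fit (SE 0.86, edgeR adjusted p = 0.246, DESeq2 adjusted p = 0.0464). The next smallest p belonged to L1MDb antisense (2.95, SE 1.10) and L1M3b sense (-2.84, SE 1.10). The outcome depended on the heterozygous testis libraries: calls were mostly higher without replicate 1 and mostly lower without replicate 2. Each of these fits leaves 1 library in that group.

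Between homozygous and heterozygous testis no older LINE-1 entry passed the threshold when replicate numbers were not used as a block. Of 206 entries tested edgeR called 0, as of all 1074 (0%), and DESeq2 called 0; 0 older LINE-1 entries and 19 of all entries had an unadjusted p under 0.05. The groups failed to overlap for 2 entries that were higher and 11 that were lower in homozygotes, 0.971% and 5.34% of those tested, against 3.26% and 13.8% of all entries. The median log2 fold change of the older LINE-1 entries was -0.42 (all entries -0.24). It was -0.06 (all entries 0.03) when scaled within the transposon table and -0.02 (all entries 0.17) with plain gene read totals. The 2 libraries of each number gave opposite pictures: in replicate 1, 199 of 206 entries were lower in the homozygote (median log2 ratio -0.76), and in replicate 2, 147 were higher (median 0.43). The smallest p belonged to L1MEf sense, at 294 and 323 CPM in heterozygotes and 117 and 66.6 CPM in homozygotes (log2 fold change -1.75, SE 0.93, edgeR adjusted p = 1.00). L1_Mus1 antisense had a log2 fold change of -0.84 (SE 1.18), and its sign depended on single libraries: it was 0.32 without heterozygous replicate 1 and 0.09 without homozygous replicate 2, but -1.47 without heterozygous replicate 2 and -4.23 without homozygous replicate 1.

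The share of sense reads, which does not depend on the scaling between libraries, was compared within families. Of the 106 families, 75 had at least 100 uniquely mapped reads over both orientations in each library. Their median sense share in the testis was 54.8% and 64.7% for heterozygotes and 46.8% and 47.3% for homozygotes. In the IP it was 56.1% and 59.5% for heterozygotes and 66.6% and 72.0% for homozygotes. The homozygous testis libraries were thus the lowest and the homozygous IPs the highest. Over all 316 transposon families that met the same minimum, the medians were 47.8% and 50.1% in homozygous testis and 61.6% and 66.9% in homozygous IP, with heterozygous testis replicate 2 at 63.8% between the latter. The heterozygous testis libraries lay further apart than the libraries of the other 3 groups.

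**Figure D4:**
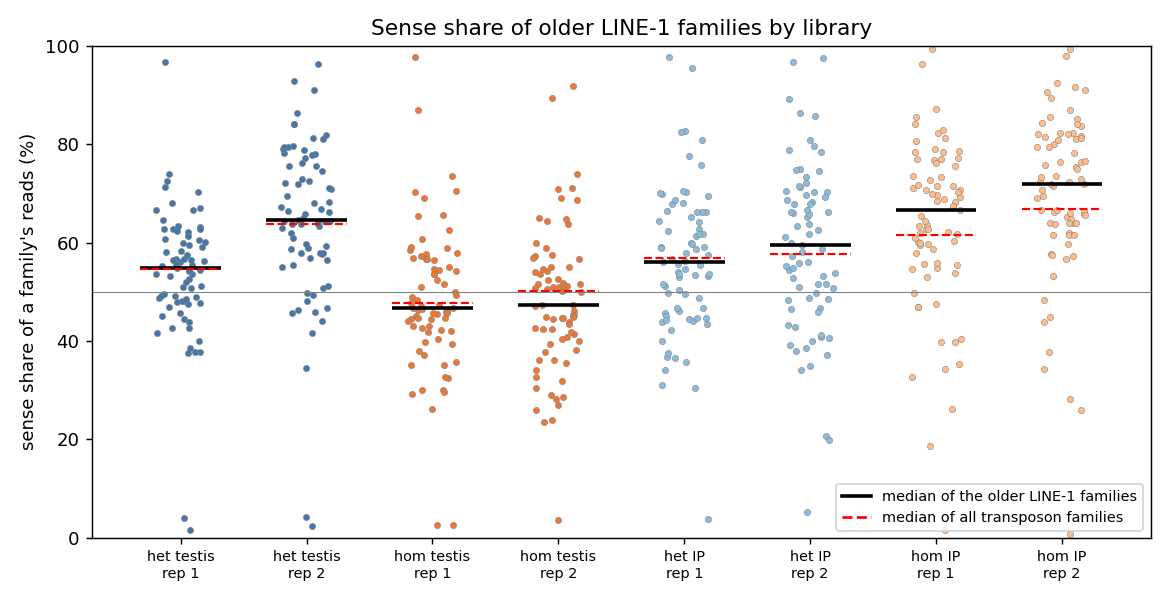
Sense share (%) of the uniquely mapped reads of each of 75 older LINE-1 families in the 8 libraries, 1 point per family, with the median of these families as a black line and the median of 316 transposon families as a dashed red line. The medians lie at 46.8% and 47.3% in homozygous testis and at 66.6% and 72.0% in homozygous IP.

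Counted by family, 65 of the 75 had a higher sense share in both homozygous IPs than in both homozygous testis libraries (86.7%, against 60.8% of the 316 families), and 4 a lower one. In heterozygotes 10 of 75 were higher and 16 lower in the IP (13.3% and 21.3%, against 20.9% and 21.8%). Between the IPs, 50 families had a higher and 3 a lower share in homozygotes (66.7% and 4%, against 49.4% and 28.2%). Between the testes, 54 were lower and 2 higher in homozygotes (72% and 2.67%, against 39.2% and 5.7%). No test was run on these shares, as 2 libraries against 2 cannot pass the threshold in an exact test, and families of 1 library share its depth and strand assignment.

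The families ranged from almost pure sense to almost pure antisense. HAL1-3A_ME had 91.8% to 99.4% sense reads and Lx2A1 74.0% to 98.0%, the highest mean shares. HAL1-2a_MD had 0.719% to 5.20%, the lowest. L1_Mus1 stood at 4.00% and 4.32% in the testis of heterozygotes, and in that of homozygotes at 2.62% in replicate 1 and 31.97% in replicate 2. Its IP values were 54.0% and 51.5% for heterozygotes and 62.7% and 65.3% for homozygotes. Of the 75 families 23 were above 50% sense in all 8 libraries and 3 were below it in all 8. The counting error on a family's share was at most 2.27 percentage points for these 4 families (95% Wilson interval, counting error only, since PCR reads are not independent molecules). Summed over all older LINE-1 reads the sense share was 42.6% and 50.5%, 38.0% and 46.3%, 60.5% and 62.5%, and 66.0% and 72.3% in the same order of groups. Leaving out L1_Mus1 antisense narrowed the step between testis and IP mainly in heterozygotes and in homozygous testis replicate 1, and hardly in homozygous testis replicate 2: without it the testis values were 53.8% and 62.1% in heterozygotes and 50.1% and 47.4% in homozygotes, and the IP values were 61.2% and 63.4% in heterozygotes and 66.3% and 72.6% in homozygotes.

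Reads that map to several places are counted in a table of their own, and libraries differed strongly in how many they had. In the testis, uniquely mapped reads were 68.9% and 67.5% of older LINE-1 reads for heterozygotes and 66.8% and 92.7% for homozygotes. In the IP they were 66.6% and 94.6%, and 96.3% and 97.3%. Homozygous testis replicate 2 and heterozygous IP replicate 2 therefore resembled the homozygous IPs and not the other library of their group. For the L1Md families the same share was 44.0% to 65.1%. In the murine families it was 45.5% to 90.2%, lower than in the Lx families (65.9% to 95.0%) and the HAL1 families (92.9% to 99.8%).

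**Figure D5:**
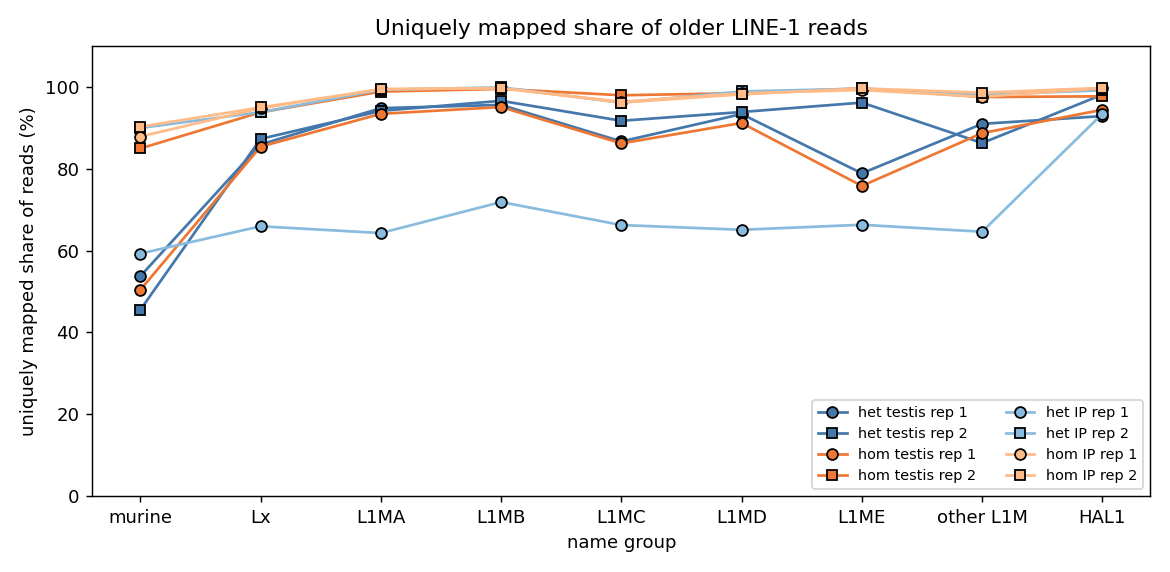
Uniquely mapped share (%) of older LINE-1 reads by name group in each of the 8 libraries, circles for replicate 1 and squares for replicate 2. The murine families have the lowest share in all 8 libraries, and heterozygous IP replicate 1 lies near 66% in the Lx and most L1M groups, below the other 7 libraries.

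L1_Mus1 antisense again led the table of multiply mapped reads, with 27150 and 10099 CPM in heterozygotes and 18167 and 113 CPM in homozygotes in the testis, and 349.7 and 41.3 CPM and 15.7 and 12.6 CPM in the IP. That was 71.8%, 78.1% and 73.7% of all multiply mapped older LINE-1 reads in heterozygous testis replicates 1 and 2 and homozygous testis replicate 1, and 5.84% in homozygous testis replicate 2. The drop from homozygous testis to homozygous IP was -9.34 on the log2 scale (SE 1.31, edgeR adjusted p = 9.53e-05). In that comparison 21 of 82 older LINE-1 entries tested were lower and 0 higher (25.6%, against 11% and 0% of 444 entries). Among them were Lx6, L1_Mus2 and L1_Mur1 antisense and L1M2 sense, with log2 fold changes of -4.87, -4.02, -4.78 and -5.82. Their testis libraries lay far apart. L1M2 sense was at 257 and 4.84 CPM in testis against 2.03 and 2.58 CPM in the IP. In the same order Lx6 antisense was at 262 and 49.7 against 8.13 and 2.58 CPM. L1_Mus2 antisense was at 289 and 77.3 against 13.3 and 9.36 CPM, and L1_Mur1 antisense at 106 and 33.9 against 1.85 and 3.23 CPM. The number of calls depended on single libraries, being largest without homozygous testis replicate 2 and smallest without homozygous IP replicate 2. By replicate number, the median log2 ratio of IP to testis was -3.22 in replicate 1 and -1.29 in replicate 2. The filter on low counts left out 130 entries. Called entries such as L1MA5 antisense (6.27 and 1.63 CPM in testis, 0 and 0 CPM in the IP) passed it only through the testis libraries. The common direction of the calls is therefore partly set by the filter.

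The other comparisons of multiply mapped reads gave 0 calls by edgeR among the older LINE-1 entries. Between the IPs all 75 entries tested had a positive log2 fold change, with a median of 3.41 against 2.72 for all 404 entries (0% called). Of the 75, 34 had an unadjusted p under 0.05, as did 120 of all 404 entries. DESeq2 called 59 of the 75 higher. Its calls over all transposon entries were not counted, here or in the comparisons below. The filter on low counts left out 137 entries. Entries such as L1M2 antisense (252 and 4.22 against 1.11 and 0.161 CPM) passed it only through the heterozygous IPs. The common sign is therefore partly set by the filter. Scaling within the table took the older LINE-1 median to 0.36. The heterozygous IPs differed widely from each other here, as in L1_Mus2 antisense at 250.1 and 83.3 CPM against 13.3 and 9.36 CPM, and in Lx6 antisense at 371 and 39.7 CPM against 8.13 and 2.58 CPM. By replicate number, the median log2 ratio of the 75 entries was 4.27 in replicate 1, with 75 above 0. In replicate 2 it was 1.26, with 62 above 0 and 13 below. Between the testes 0 of 162 were called (0 with an unadjusted p under 0.05, DESeq2 0), and groups did not overlap for 0 that were higher and 19 that were lower (11.7%, against 1.06% and 13.6% of all entries). Calls numbered, in heterozygous IP against testis, 0 of 160 (2, DESeq2 1), and in the interaction 0 of 161 (14, DESeq2 6), beside 0%, at most 0.134% and 0% of all entries. Of all entries, 6 of 748 in heterozygous IP against testis and 31 of 754 in the interaction had an unadjusted p under 0.05.

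Genes that act in LINE-1 silencing were measured in the same libraries, from a list of 33 chosen with earlier results of these data known. Of these 32 were in the table and 31 were tested between the IPs, where 5 were higher and 0 lower in heterozygotes (all genes 16.8% and 14.7%). Besides Rnf17 they were Piwil1, the PIWI protein of meiotic and later germ cells (389 and 412 against 212 and 165 CPM, log2 fold change 1.09), Gtsf1, a PIWI cofactor needed for transposon silencing (68.6 and 40.6 against 13.7 and 7.74 CPM, 2.36), Dnmt3l, a cofactor of de novo DNA methylation (3.40 and 4.38 against 1.29 and 0.968 CPM, 1.76), and Adad2, a germ cell protein with a double-stranded RNA-binding domain (12.9 and 11.4 against 6.47 and 2.74 CPM, 1.42). The median of the list was 0.02, beside -0.02 for all genes. Between the testes edgeR called 0 of 32 (all genes 0%), with Rnf17 at a log2 fold change of -2.76 (SE 0.64, edgeR adjusted p = 0.144), and DESeq2 called 1 lower, Rnf17.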

How the data were processed

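The authors deposited whole-number counts of reads per gene and per transposon family and orientation, the latter in separate tables of uniquely and of multiply mapped reads. STAR, DESeq and mm9 were used, per the submitters' processing notes; for their roles and versions, the counting rules and the strand assignment the entry is "not stated" in what was used here. Testis columns repeated as lysate in the IP tables were identical (12 of 12), and 0 columns were left unmapped. Coordinates, family sequences and the authors' table of changed genes were not used here.

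Transposon counts were scaled by gene reads times the TMM factor of the gene table over 8 libraries. Each table was tested whole with edgeR 4.0.16 in R 4.3.3 (filterByExpr, quasi-likelihood test, Benjamini-Hochberg threshold 0.05), each pair of groups on its own 4 libraries and the interaction on all 8. Alternatives were DESeq2 1.42.0, other scalings, no filter, a replicate block and leaving out each library. The steps were tested on simulated data. Named were the highest entry of each name group and orientation, up to 5 called entries a direction with the smallest adjusted p (or the 3 smallest p), and the extreme sense shares. The members and lists were chosen with earlier results of these data known.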

Additional observations from a re-analysis of the deposited data

How the results depend on the processing

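Scaling within the transposon table took the called entries of uniquely mapped reads from 114 to 68 between the IPs, from 1 to 0 in the heterozygous IP against testis and from 105 to 67 in the homozygous IP against testis, and those of multiply mapped reads from 0 to 1 between the IPs and from 21 to 0 in the homozygous IP against testis. The log2 ratios of the sums became -0.60 (from 0.29) between the IPs and 0.33 (from -0.60) in the homozygous IP against testis, and 0.33 (from 3.36) for multiply mapped reads between the IPs. Plain gene read totals gave 0.62 between the IPs and 0 calls in the heterozygous IP against testis. The sum between the IPs without HAL1, added after seeing the data, was 0.91. DESeq2 called 1 entry in the interaction of uniquely mapped reads and, for multiply mapped reads, 59 between the IPs, 1 in the heterozygous IP against testis, 41 in the homozygous IP against testis and 6 in the interaction. With no filter 29 multiply mapped entries were called between the IPs. The shares of all transposon entries called under these alternatives were not counted.

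Leaving out each library in turn, calls of uniquely mapped reads ranged from 0 to 171 in the heterozygous IP against testis, 0 to 167 in the homozygous IP against testis and 0 to 103 in the interaction. Calls of multiply mapped reads ranged from 0 to 171 between the IPs, 0 to 1 and 1 to 134 in the heterozygous and homozygous IP against testis, and 0 to 18 in the interaction, and the log2 ratios of their sums from 1.16 to 4.19 between the IPs and from -4.95 to -1.28 in the homozygous IP against testis. Log2 fold changes that turned were, between the testes, L1M7 sense (-2.56 to 2.10), L1_Mus1 antisense (-4.23 to 0.32), HAL1-3A_ME sense (-1.55 to 0.79) and multiply mapped L1_Rod antisense (-3.57 to 0.23). In the heterozygous IP against testis they were HAL1-2a_MD antisense (-0.89 to 0.23) and multiply mapped L1ME2 antisense (-14.41 to 4.59) and L1MDa antisense (-3.46 to 4.71), and in the interaction L1_Mus1 antisense (-2.53 to 2.03). Each of these fits has its own filter and a group of 1 library, so its counts are not set against the share over all entries. Beyond fewer samples the cause was not tested.

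With the replicate number as a block, 1 entry was called between the testes, L1_Mus1 antisense, at a log2 fold change of -1.81, and HAL1-3A_ME sense turned from 0.05 to -0.28. The block gave 0 calls of uniquely mapped reads in the heterozygous IP against testis and 1 of multiply mapped reads between the IPs. No label says that equal numbers pair libraries: over 1039 transposon entries, deviations of equal numbers from the group means correlated at 0.476 between the testis groups and 0.031 between the IPs, and over 13911 genes at 0.593 and 0.042. The sums have a small counting error, and 2 libraries a group limit their precision. Of the 212 entries, 104 to 207 had a multiply mapped read in a library; this number did not follow the gene reads of the libraries, at 166 in homozygous testis replicate 2, which had the most, and 207 in heterozygous IP replicate 1.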
